A study of Mus musculus with 16 samples.

Results

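Control hippocampal neurons were compared with control cortical neurons of TERT-AD mice across every gene that passed a filter on low counts. The comparison took the 4 libraries labelled as control hippocampal neurons and the 4 labelled as control cortical neurons, 8 of the 16 RNA-seq libraries of the series. The other 8 libraries came from the same 2 kinds of sample in tamoxifen-treated mice and served as a second measurement of the same region difference. They also entered the estimate of the spread used for the control comparison. All mice carried the strain label B6.129S6.SvEvTac and the model name TERT-AD, and the treatment was either tamoxifen or its vehicle. The control groups therefore share the TERT-AD background with the treated groups. The sources used here do not state the alleles behind that name, the promoter of any Cre or transgene, the age, the number of animals per library or how neurons were obtained.

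The cerebral cortex and the hippocampus both arise from the dorsal telencephalon and are built mostly of glutamatergic projection neurons with a minority of GABAergic interneurons. Cortical projection neurons are arranged in layers that differ in their targets and their transcription factors. Hippocampal projection neurons are split into the pyramidal fields CA1, CA2 and CA3 and the granule cells of the dentate gyrus, each with its own marker genes. The striatum lies under the cortex, and the choroid plexus and the ependyma of the ventricles lie next to the hippocampus.

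Promoters of 4 leading genes, 2 per direction, are shown here because these genes are among those with the largest differences described below. Each run holds 250 bases before and 50 bases after the RefSeq start in GRCm38.p6, written 5′ to 3′ on the gene's own strand. Capitals mark the GC box, searched as GGGCGG on both strands (CCGCCC on the other strand). Fibcd1 lies on the minus strand at chr2:31845956-31846255, Fcgbp on the plus strand at chr7:28070986-28071285, Drd2 on the plus strand at chr9:49340153-49340452 and Rspo1 on the plus strand at chr4:124986180-124986479.
Fibcd1: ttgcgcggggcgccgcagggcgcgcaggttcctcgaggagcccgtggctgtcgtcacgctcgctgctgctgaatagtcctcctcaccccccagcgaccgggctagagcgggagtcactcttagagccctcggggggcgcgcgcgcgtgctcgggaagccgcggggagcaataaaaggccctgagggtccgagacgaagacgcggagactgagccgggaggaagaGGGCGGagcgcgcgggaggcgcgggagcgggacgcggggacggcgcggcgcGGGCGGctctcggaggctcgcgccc
Fcgbp: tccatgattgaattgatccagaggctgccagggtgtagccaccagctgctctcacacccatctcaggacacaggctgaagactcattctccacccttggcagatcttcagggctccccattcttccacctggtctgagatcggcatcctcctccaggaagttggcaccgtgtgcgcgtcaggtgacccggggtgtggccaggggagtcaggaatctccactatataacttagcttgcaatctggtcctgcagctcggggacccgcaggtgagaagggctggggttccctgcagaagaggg
Drd2: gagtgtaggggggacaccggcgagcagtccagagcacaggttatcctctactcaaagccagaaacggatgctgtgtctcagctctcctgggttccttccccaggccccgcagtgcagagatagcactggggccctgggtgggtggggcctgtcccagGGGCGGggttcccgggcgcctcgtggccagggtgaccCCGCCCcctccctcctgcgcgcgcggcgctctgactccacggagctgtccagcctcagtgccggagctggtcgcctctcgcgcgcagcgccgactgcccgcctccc
Rspo1: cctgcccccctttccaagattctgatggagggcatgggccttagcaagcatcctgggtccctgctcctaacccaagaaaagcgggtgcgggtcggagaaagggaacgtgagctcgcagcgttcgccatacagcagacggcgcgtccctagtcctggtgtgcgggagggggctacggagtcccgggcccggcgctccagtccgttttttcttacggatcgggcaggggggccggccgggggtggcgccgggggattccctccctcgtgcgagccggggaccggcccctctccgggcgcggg

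These windows held 74.3% G and C with 46 CpG dinucleotides in Fibcd1, 58.3% with 7 in Fcgbp, 70.3% with 23 in Drd2 and 69.0% with 29 in Rspo1. GC boxes were found 2 times each in Fibcd1 and Drd2 and were not in the Fcgbp and Rspo1 windows. Over all 27025 RefSeq windows of that length, tested genes or not, 35.9% held a GC box. Windows were matched by symbol to 368 of the 489 genes called higher in hippocampal samples, 414 of the 629 called higher in cortical samples and 12013 of all genes tested. Median G and C content was 59.2%, 64.2% and 60.3% in these 3 sets, and a GC box was in 58.7%, 62.6% and 60.8% of the windows. The cyclic AMP response element TGACGTCA, a palindrome bound by CREB, was in 1.09% of hippocampal, 4.11% of cortical and 2.95% of all tested windows. An EGR motif, GCGTGGGCG on either strand, was in 1.09%, 0.966% and 1.16%. The NeuroD-type E-box CAGATG on either strand was in 12%, 13.3% and 12.5%, and the TATA box TATAAA in 9.51%, 6.28% and 7.61%. These shares are descriptions of letters in a window and were not tested between the sets.

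Each control library held between 41467410 and 54691706 reads counted in genes. Neighbouring libraries of a group (1 with 2, and 3 with 4) were near repeats. Their counts differed with a variance of 3.53 to 3.75 times the Poisson value for genes with 20 to 200 counts, against 6.15 to 8.34 times for the other 8 pairs within a group. Neighbouring libraries were therefore summed into sample A and sample B of each group, with 84624671 to 108246441 counts per control sample and n = 2 per region. No label ties the samples to separate animals, so p-values reflect only how these samples spread, which may be technical. Mitochondrial genes took 30.85 to 32.08% of the gene counts in cortical and 23.75 to 25.53% in hippocampal control libraries. With these genes left out, edgeR called 1128 genes different between the regions, among them all 1118 called with them in. In a principal component analysis of all 8 summed samples, hippocampal tamoxifen sample A lay at -20.5 and cortical tamoxifen sample A at 7.98 on the first axis. The other cortical samples lay between -80.98 and -30.56 and the other hippocampal samples between 54.41 and 74.44, so the 2 tamoxifen samples stood away from their regions. The 4 control samples split by region on their own first axis, which held 73.6% of the variance.

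Levels below are normalised counts (CPM, counts scaled to TMM-adjusted library sizes), with sample A before sample B. Tert, the telomerase reverse transcriptase gene named in the model (chr13:73627001-73649041, plus strand), was at 0.546 and 1.32 CPM in the cortical and 1.29 and 3.59 CPM in the hippocampal control samples. The regions overlapped. The log2 fold change was 1.39 ± 0.67 (SE, n = 2 per region) and did not pass edgeR's quasi-likelihood test (Benjamini-Hochberg adjusted p = 0.23).

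Across the genome 1118 of 18074 genes tested (6.19%) differed between the regions at an adjusted p below 0.05 in edgeR's quasi-likelihood test. Of these, 489 (2.71% of genes tested) were higher in hippocampal and 629 (3.48%) higher in cortical samples. At least a 2-fold difference was reached by 239 hippocampal calls (1.32%) and 315 cortical calls (1.74%), and at least a 4-fold difference by 56 and 99. The median log2 fold change was 0.99 over the hippocampal calls, -1 over the cortical calls and 0.0016 over all genes tested. Of the called genes 1113 had no overlap between the 4 hippocampal and 4 cortical libraries, where 45.9% of all genes tested had none. Leaving out a control sample can hardly turn the sign of a gene without overlap, so kept signs there are no separate evidence. Without cortical sample A the test called 2 genes. Without cortical sample B, hippocampal sample A or hippocampal sample B it called 0, with 2568, 3224 and 3431 genes at an unadjusted p below 0.05; every called gene kept its sign in these 4 fits. With tamoxifen samples out of the spread estimate, the 4 control samples alone gave 4825 calls of 17350 (27.8%).

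Among called genes averaging 1 CPM or more and without library overlap, predicted genes left out, the largest log2 fold change in the hippocampal direction was that of Fibcd1, which encodes a fibrinogen-domain membrane receptor and is a CA1 marker. Its level was 4.05 and 2.51 CPM in cortical against 36.2 and 38.0 CPM in hippocampal samples. No hippocampal library came near a cortical one, the lowest hippocampal library being at 35.8 and the highest cortical one at 4.40 CPM. The log2 fold change was 3.50 ± 0.24 (SE, n = 2 per region; edgeR adjusted p = 0.0103). Shisa6, an auxiliary subunit of AMPA receptors (chr11:66211725-66525964), was at 4.31 and 4.73 CPM in cortical against 23.4 and 28.5 CPM in hippocampal samples, a log2 fold change of 2.52 ± 0.16 (adjusted p = 0.0103). Cabp7, a calcium-binding protein of the calmodulin family (chr11:4736892-4746778), was the most abundant of the leading hippocampal genes by CPM, at 48.6 and 59.7 against 311 and 317 CPM (log2 fold change 2.54 ± 0.19, edgeR adjusted p = 0.0103). In both genes the samples of a region lay close together and the regions were far apart.

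C1ql2, a secreted synaptic organizer of dentate granule cells (chr1:120340582-120343171), was at 1.73 and 1.11 CPM in cortical against 12.1 and 11.9 CPM in hippocampal samples, a log2 fold change of 3.07 ± 0.26 (edgeR adjusted p = 0.0123). Npy2r, the presynaptic Y2 receptor for neuropeptide Y, was at 0.309 and 0.296 CPM in cortical against 2.06 and 2.86 CPM in hippocampal samples (log2 fold change 3.02 ± 0.32). Both genes separated the regions without overlap, as the choice of leading genes required. Fcgbp, an Fc-binding protein with mucin-like features, was low in every sample, at 0.154 and 0.282 CPM in cortical against 2.86 and 1.93 CPM in hippocampal samples (3.46 ± 0.72, edgeR adjusted p = 0.0418). Lct, which encodes lactase and marks dentate granule cells, was at 0.641 and 0.789 against 3.29 and 3.50 CPM (2.25 ± 0.46). The remaining leading hippocampal genes were Ccbe1, Thsd7b, Iqgap2, Matn2, Spp1, F13a1 and Pkp2, with log2 fold changes between 1.97 (Pkp2, a desmosomal plakophilin) and 3.10 (Ccbe1, an extracellular protein of lymphatic growth).

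Ccbe1, Thsd7b, Iqgap2 and Matn2 did not keep a difference of that size in the tamoxifen samples. Matn2, a matrix protein of the matrilin family, was at 3.92 and 3.47 CPM in cortical against 26.04 and 18.2 CPM in hippocampal controls. In tamoxifen samples it was at 10 and 9.42 CPM in cortical against 7.76 and 16.1 CPM in hippocampal tissue, where the regions overlapped. Its log2 fold change was 2.58 ± 0.35 in controls and 0.29 ± 0.33 in tamoxifen samples. The tamoxifen values of the other 3 were 0.45 for Ccbe1, -0.10 for Thsd7b and 0.21 for Iqgap2, and for none of the 4 did edgeR's test of the difference between treatments pass (adjusted p = 0.889 for each).

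**Figure D1:**
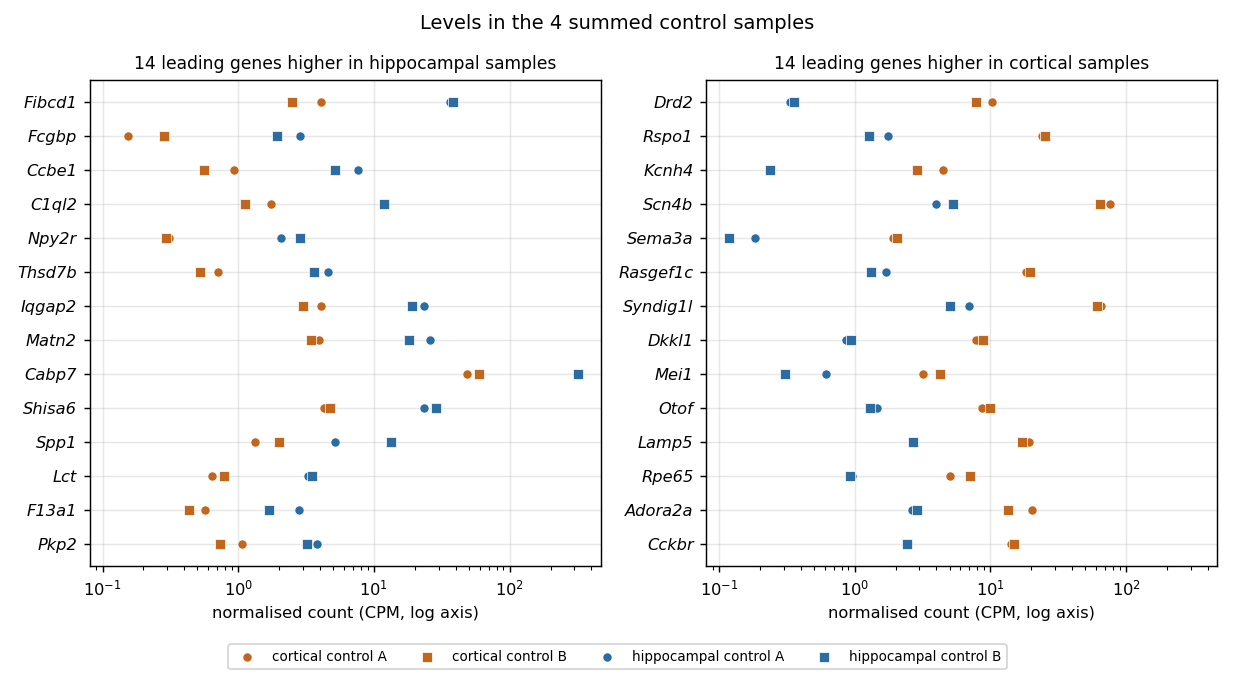
Normalised counts in CPM (log axis) of 14 leading genes in each direction, with circles for sample A and squares for sample B of each control region. The genes were chosen for having no overlap between the libraries of the regions, so their points lie apart by selection. Fibcd1, for example, sits at 36.2 and 38.0 CPM in hippocampal and at 4.05 and 2.51 CPM in cortical samples.

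Marker lists for the hippocampal fields moved unevenly, where 2.71% of all genes tested were called higher in hippocampal samples. CA1 markers gave 4 calls of 9 tested, all higher in hippocampal samples, with a list median log2 fold change of 1.36 against 0.0016 over all genes. Besides Fibcd1 these were Spink8, a secreted protease inhibitor, at 0.142 and 0.0845 against 1.56 and 1.62 CPM (3.78 ± 0.36, edgeR adjusted p = 0.0163), the Nodal antagonist Lefty1 (1.36 ± 0.26) and the ciliary receptor Gpr161 (1.39 ± 0.28). Wfs1, an endoplasmic reticulum protein also used as a CA1 marker, was not called, at 42.2 and 40.1 against 46.6 and 44.0 CPM (0.14 ± 0.18). Dentate markers gave 2 calls of 11, C1ql2 and Lct, with a median of 0.57. Prox1, the transcription factor of granule cell identity, was at 20.1 and 14.8 CPM in cortical against 17.6 and 20.9 CPM in hippocampal samples, and the regions overlapped (0.14 ± 0.34).

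No marker of CA2 (6 tested, median 1.26) or CA3 (6 tested, median 0.30) passed edgeR's test. The largest CA2 value belonged to Map3k15, a kinase, at 0.878 and 0.310 against 7.42 and 5.31 CPM (3.41 ± 1.35, adjusted p = 0.167). It overlaps Pdha1 on the other strand. Amigo2, an adhesion protein of CA2 neurons, was at 4.52 and 3.76 against 13.1 and 9.02 CPM (1.42 ± 0.36, edgeR adjusted p = 0.062). Grik4, the kainate receptor subunit typical of CA3, had a log2 fold change of 0.64 ± 0.30 (adjusted p = 0.216), Bok, a BCL2-family gene, one of -0.05 ± 0.25, and Iyd, an iodotyrosine deiodinase, one of 0.90 ± 0.48. Dsp, desmoplakin, a dentate marker, had the largest difference of the dentate list without a call, at 1.47 and 0.0564 CPM in cortical against 24.9 and 17.9 CPM in hippocampal samples (4.78 ± 2.30, adjusted p = 0.251). Dsp and Map3k15 were higher in cortical sample A than in B, as was the choroid plexus gene Ttr (1012 against 4.62 CPM). In hippocampal tamoxifen sample A, where Ttr was at 33.9 CPM, Dsp was at 4.14 and Map3k15 at 0.470 CPM; the part of choroid plexus in both genes was not tested.

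**Figure D2:**
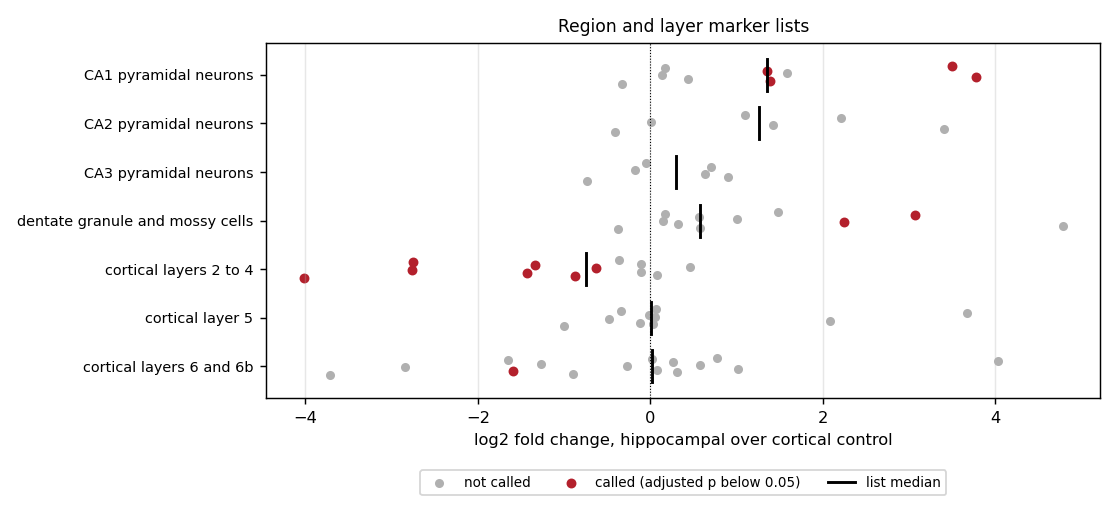
Log2 fold change (hippocampal over cortical control, x axis) of every tested member of the hippocampal field and cortical layer marker lists, with called genes in red, other genes in grey and the list median as a black bar. The red points lie to the right for CA1 (4 of 9) and dentate markers (2 of 11) and to the left for markers of layers 2 to 4 (7 of 12).

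Cortical layer markers were called in the cortical direction where they passed, beside 3.48% of all genes tested called in that direction. Of 12 tested markers of layers 2 to 4, 7 were higher in cortical samples and 0 in hippocampal samples, with a list median of -0.75. Rspo1, a secreted enhancer of Wnt signalling whose promoter is shown above, was at 23.9 and 25.1 CPM in cortical against 1.75 and 1.28 CPM in hippocampal samples (-4.02 ± 0.57, edgeR adjusted p = 0.0248). Otof, otoferlin, a calcium sensor for vesicle fusion, was at 8.71 and 9.99 against 1.46 and 1.30 CPM (-2.76 ± 0.40). Lamp5, a membrane protein of upper-layer and some GABAergic neurons, was at 19.2 and 17.1 against 2.69 and 2.67 CPM (-2.76 ± 0.47). All cortical libraries were above all hippocampal libraries in these 3 genes, which are leading genes chosen for no library overlap. The other calls were the exchange factor Rasgrf2 (-1.43 ± 0.23), the homeobox genes Cux2 (-1.34 ± 0.27) and Cux1 (-0.63 ± 0.14) and the nuclear receptor Rorb of layer 4 (-0.87 ± 0.14).

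Markers of deeper layers were called in shares near the 6.19% of all genes tested. None of 10 layer 5 markers passed (median 0.01), Fezf2, the determinant of subcerebral projection neurons, being at 10.02 and 9.83 CPM in cortical against 11.5 and 9.10 CPM in hippocampal samples. Etv1, another layer 5 transcription factor, had a log2 fold change of -0.47 ± 0.26. Of 15 markers of layers 6 and 6b only Cplx3, a complexin of subplate-derived neurons, passed, at 19.5 and 18.9 against 6.79 and 5.95 CPM (-1.59 ± 0.14, edgeR adjusted p = 0.0124). Foxp2, a transcription factor of layer 6, was at 4.93 and 3.97 against 0.402 and 0.273 CPM without overlap and missed the threshold (-3.72 ± 0.90, adjusted p = 0.0589). Tle4, a corepressor of the same layer, had a log2 fold change of 0.08 ± 0.23. Over the 15 markers of layers 6 and 6b the median was 0.01, with 8 values above 0, up to 4.03, and 7 below.

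Genes known for striatal projection neurons were among the called genes with large differences in favour of the cortical samples. Drd2, the D2 dopamine receptor (chr9:49340662-49407214), was at 10.3 and 7.82 CPM in cortical against 0.335 and 0.358 CPM in hippocampal samples (-4.70 ± 0.57, edgeR adjusted p = 0.0188). Adora2a, an adenosine receptor, was at 20.1 and 13.5 against 2.66 and 2.90 CPM (-2.60 ± 0.53). No hippocampal library reached the lowest cortical library in either of them, as the choice of leading genes required. Of 13 tested striatal markers 7 were called, all higher in cortical samples, beside 3.48% of all genes tested. The list median was -2.60. Also called were Pde10a, a phosphodiesterase of striatal neurons (-2.19 ± 0.36), the retinoid receptor Rxrg (-2.35 ± 0.33), the orphan receptor Gpr6 (-4.96 ± 1.10) and the tryptophan-degrading enzyme Ido1, at 1.58 and 1.75 against 0.0502 and 0.0171 CPM (-5.57 ± 0.78). Rgs9 missed the threshold (-2.44 ± 0.57, adjusted p = 0.0553). The summed level of the 13 markers was 661.5 and 603.3 CPM in cortical against 348.8 and 322.3 CPM in hippocampal samples. Cortical neurons and striatal cells in a cortical sample cannot be told apart in bulk RNA, and neither can fewer cells of a type and less RNA per cell.

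Several other leading cortical genes encode membrane proteins. Scn4b, an auxiliary sodium channel subunit, was at 75.5 and 64.7 CPM in cortical against 3.98 and 5.28 CPM in hippocampal samples (-3.92 ± 0.54, edgeR adjusted p = 0.0241), and Kcnh4, a potassium channel of the ether-a-go-go family, at 4.51 and 2.90 against 0.234 and 0.239 CPM (-3.96 ± 0.46). Syndig1l, a relative of the synapse differentiation gene Syndig1, was at 65.4 and 60.9 against 6.94 and 5.07 CPM (-3.39 ± 0.29). Both cortical samples were above both hippocampal samples in each of them, as the choice of leading genes required. The guidance ligand Sema3a (-3.70 ± 0.68), the exchange factor Rasgef1c (-3.64 ± 0.41), the secreted Dkkl1 (-3.21 ± 0.35), the meiotic gene Mei1 (-3.01 ± 0.40), the retinoid isomerase Rpe65 (-2.68 ± 0.43) and the cholecystokinin B receptor Cckbr (-2.58 ± 0.38) completed the leading cortical genes.

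Transcription factors of the pallium were called in the cortical direction where they passed at all. Of 43 tested, 11 were higher in cortical and 0 in hippocampal samples, with a median of -0.38. Of all genes tested 3.48% were called higher in cortical samples. Meis2, a homeobox factor, was at 103 and 115 CPM in cortical against 36.0 and 35.8 CPM in hippocampal samples (-1.60 ± 0.17, edgeR adjusted p = 0.0177). Pou3f2, a factor of upper-layer neurons, was at 24.6 and 27.0 against 11.7 and 12.8 CPM (-1.08 ± 0.16). Tbr1, a determinant of layer 6, was at 48.3 and 62.7 against 16.7 and 15.2 CPM (-1.80 ± 0.36). The groups did not overlap in these 3 genes. Mef2c, an activity-dependent factor, had a log2 fold change of -1.57 ± 0.30. Zbtb20, a zinc finger factor of hippocampal development, was at 218 and 209 against 174 and 209 CPM, with overlap (-0.15 ± 0.23).

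Of 16 general neuronal genes 13 had a log2 fold change below 0, 3 were called, all higher in cortical samples, and the median was -0.56. The share called higher in cortical samples was 3.48% over all genes tested. Nefm, the medium neurofilament chain, was at 173 and 190 against 56.2 and 51.3 CPM (-1.76 ± 0.14, edgeR adjusted p = 0.0103), Nrgn, the calmodulin-binding postsynaptic neurogranin, at 755 and 812 against 322.6 and 301.1 CPM (-1.33 ± 0.28), and Nefl, the light neurofilament chain, had a log2 fold change of -0.91 ± 0.15. The spans of Nefm and Nefl overlap on opposite strands on chromosome 14. No strand setting is stated, and whether their counts share reads was not checked. Slc17a7, the vesicular glutamate transporter of both regions, was at 511 and 529 against 381 and 333 CPM and was not called (-0.54 ± 0.28). Camk2a had a log2 fold change of -0.39 ± 0.22 and the neuronal splicing factor Rbfox3 one of -1.12 ± 0.30 (adjusted p = 0.0699). Thalamic and habenular markers gave 0 calls of 7, Slc17a6 being between 1.59 and 1.98 CPM in the 4 samples and Tnnt1 having a log2 fold change of -1.65 ± 0.46.

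GABAergic markers gave 5 calls of 29, all higher in cortical samples, and a median of -0.63. The share called in that direction was 3.48% over all genes tested. The list was mixed, with 19 log2 fold changes below 0 and 10 above 0, up to 1.16. All cortical libraries lay above all hippocampal ones in 17 markers and below them in 7, beside 22.6% and 23.2% of all genes tested. Slc32a1, the vesicular GABA transporter, was at 24.2 and 20.97 against 10.1 and 9.56 CPM (-1.20 ± 0.24, edgeR adjusted p = 0.0386). Pvalb, the calcium buffer of fast-spiking interneurons, was at 17.6 and 21.5 against 7.40 and 8.64 CPM (-1.29 ± 0.28). Both separated the regions. The other 3 were Lamp5, Satb1, a chromatin organizer (-0.69 ± 0.12), and the homeobox gene Dlx6, which overlaps its antisense gene Dlx6os1 (-2.45 ± 0.55). The GABA-synthesizing enzymes Gad1 (-0.87 ± 0.26) and Gad2 (-1.20 ± 0.28, adjusted p = 0.0534) did not pass.

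Microglial genes stood higher in the hippocampal samples: 6 of 13 markers were called, all 13 log2 fold changes were above 0 and the median was 0.89. Over all genes tested 2.71% were called in that direction. P2ry12, the purinergic receptor of homeostatic microglia, was at 62.6 and 69.1 against 124 and 178 CPM (1.20 ± 0.20, edgeR adjusted p = 0.0317), and Tmem119 at 69.8 and 71.5 against 113 and 167 CPM (0.98 ± 0.20). Csf1r, C1qa and Cx3cr1 were also called, with log2 fold changes of 0.98 to 1.05. Markers of disease-associated microglia, a state described around amyloid plaques, gave 8 calls of 18 and a median of 1.10. Clec7a, a pattern recognition receptor, was at 0.356 and 0.578 against 1.92 and 5.03 CPM (2.90 ± 0.54), and Spp1, osteopontin, at 1.33 and 2.00 against 5.19 and 13.4 CPM (2.48 ± 0.54). In these genes hippocampal sample B was above hippocampal sample A, and both were above both cortical samples. Gpnmb (1.75 ± 0.23), the cathepsins Ctsd (1.36 ± 0.22), Ctsz (0.83 ± 0.15) and Ctsb (0.66 ± 0.14), the tetraspanin Cd9 (1.30 ± 0.24) and the chemokine Ccl6 (1.27 ± 0.28) were called as well. Cst7 and Itgax, with 2.36 ± 0.66 and 1.92 ± 0.49, were not. The summed level of the 13 microglial markers was 1108 and 1302 CPM in cortical against 1801 and 2755 CPM in hippocampal samples, and the part of microglial content in the state markers was not tested.

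The other glial and vascular lists gave 0 to 2 calls each, where 6.19% of all genes tested were called. Gfap, the intermediate filament of astrocytes, was at 256 and 285 against 580 and 692 CPM (1.23 ± 0.25, edgeR adjusted p = 0.0414) and was the only astrocyte marker of 11 called, with a list median of 0.04 and Aqp4 at 0.16 ± 0.15. No oligodendrocyte marker of 11 was called, and Mbp, myelin basic protein, was at 42370 and 42980 CPM in cortical against 27990 and 45170 CPM in hippocampal samples. Oligodendrocyte, microglial and astrocyte transcripts were thus measured in every library labelled as neurons. Of 8 precursor markers 1 was called, the proteoglycan Cspg4 (0.83 ± 0.15), while Pdgfra (0.75 ± 0.24) and Gpr17 (0.77 ± 0.22) did not pass. In all 8 the hippocampal libraries lay above the cortical ones without overlap, as in 23.2% of all genes tested. The list median was 0.54. Endothelial markers gave 0 calls of 10, with Cldn5 at -0.23 ± 0.34. Mural markers gave 1 of 9, Vtn, vitronectin (0.62 ± 0.13), with Pdgfrb at 0.36 ± 0.19. All 9 mural log2 fold changes were above 0, with a median of 0.40, and 6 markers separated the libraries with hippocampal levels above. Meningeal fibroblast markers gave 2 of 9, the matrix proteoglycans Dcn, decorin, at 1.78 and 2.20 against 6.25 and 6.75 CPM (1.71 ± 0.23), and Lum, lumican (2.19 ± 0.44), with Col1a1 at 0.96 ± 0.22. None of 5 red blood cell markers was called.

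Choroid plexus markers had the largest list median, 4.49, and 0 calls of 12, although all 12 separated the 8 control libraries with hippocampal levels above cortical ones (23.2% of all genes tested did). Ttr, the transthyretin of choroid plexus epithelium, was at 1012 and 4.62 CPM in cortical samples and 13970 and 6777 CPM in hippocampal samples (4.35 ± 3.91, edgeR adjusted p = 0.523). The 2 cortical samples differed from each other by a larger ratio than hippocampal sample A differed from cortical sample A. Folr1, a folate receptor (4.31 ± 3.22), and Kl, klotho (4.63 ± 3.25), behaved alike in size and error. The 12 markers summed to 1487 and 79.3 CPM in cortical against 20470 and 10860 CPM in hippocampal controls, and to 8203 and 83.1 CPM in cortical against 130.7 and 10550 CPM in hippocampal tamoxifen samples. Ependymal markers, led by the ciliary factor Foxj1 at 7.30 and 3.83 against 33.7 and 21.9 CPM, gave 0 calls of 8 and a median of 3.04.

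**Figure D3:**
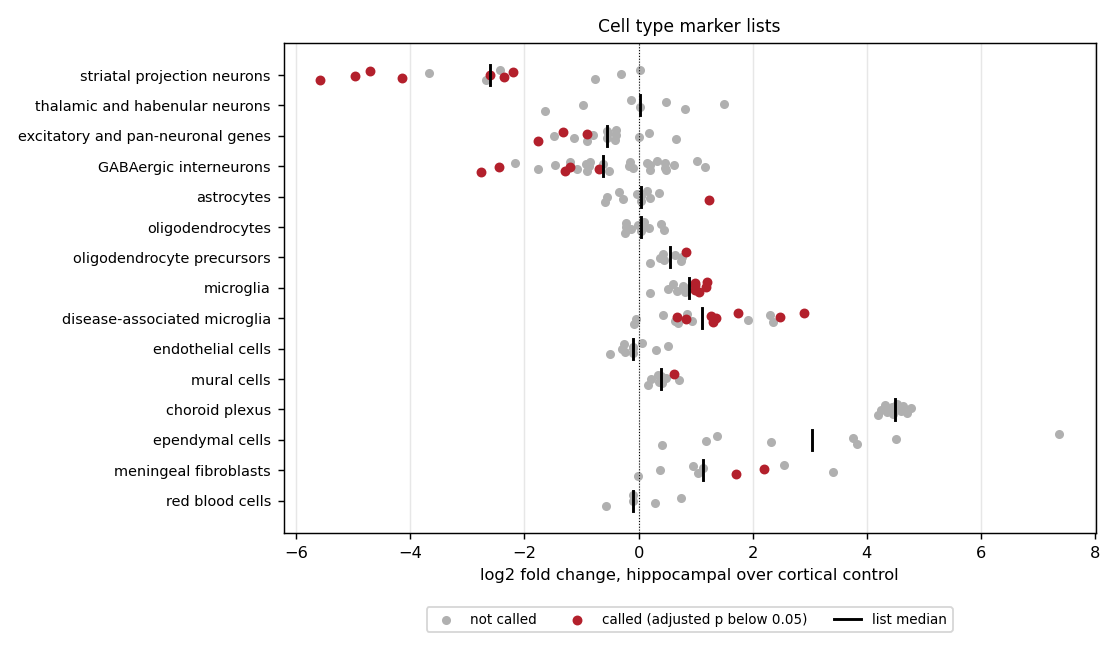
Log2 fold change (hippocampal over cortical control, x axis) of every tested member of 15 cell type marker lists, with called genes in red, others in grey and list medians as black bars. The medians of striatal (-2.60) and GABAergic markers (-0.63) lie to the left, with 10 of 29 GABAergic markers to the right of 0. The medians of both microglial lists lie to the right, with 6 of 13 and 8 of 18 called. The choroid plexus markers form a tight uncalled group around 4.49.

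Ion channels and receptors were called mostly in the cortical direction. Over all genes tested 3.48% were called in that direction and 2.71% in the hippocampal direction. Of 74 voltage-gated channel genes 17 were higher in cortical and 1 in hippocampal samples, with a median of -0.66. Kcnh3, a potassium channel of the Kcnh4 family, was at 180 and 188 against 68.9 and 67.8 CPM (-1.43 ± 0.19, edgeR adjusted p = 0.0232). Cacna1i, a T-type calcium channel, was at 98.8 and 92.8 against 47.0 and 43.3 CPM (-1.09 ± 0.13). Kcnab3, a potassium channel beta subunit (-1.78 ± 0.21), and Cacng2, the AMPA receptor regulator stargazin (-1.29 ± 0.18), were lower in hippocampal samples too, as was Kcna2 (-0.84 ± 0.15). The exception was Kcng2, a modifier subunit of delayed rectifiers, at 2.54 and 3.48 against 9.15 and 10.8 CPM (1.73 ± 0.19, edgeR adjusted p = 0.0187). In each of these channel genes with printed levels the regions were separate.

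Calls in the transmitter receptor lists were few and mostly in the cortical direction. Over all genes tested 3.48% were called in that direction and 6.19% in either. The ionotropic glutamate receptor list was near the latter share. Of 18 ionotropic glutamate receptor genes only Grin2d, an NMDA receptor subunit of interneurons, passed (-0.66 ± 0.13). The AMPA receptor subunits Gria1 (0.33 ± 0.23), Gria2 (-0.44 ± 0.41) and Gria3 (-0.97 ± 0.33) did not. Among 7 metabotropic receptors Grm3 passed (-0.53 ± 0.11). Among 17 GABA receptor genes 2 were higher in cortical samples: Gabrd, the extrasynaptic delta subunit, at 19.9 and 18.8 against 4.56 and 5.17 CPM (-1.99 ± 0.37, edgeR adjusted p = 0.036), and Gabra3 at 54.96 and 57.3 against 20.6 and 19.6 CPM (-1.48 ± 0.19). In both genes the cortical samples lay above the hippocampal samples. Gabra2 (-0.31 ± 0.15) was not called. Of 35 monoamine and acetylcholine receptors 4 were higher in cortical samples, Drd2, the serotonin receptors Htr1d (-4.45 ± 0.83) and Htr7 (-0.98 ± 0.20) and the adrenoceptor Adra1b (-1.96 ± 0.41). Htr5b, a serotonin receptor, was higher in hippocampal samples at a low level, 0.0119 and 0.0282 against 0.310 and 0.512 CPM (4.31 ± 0.69, adjusted p = 0.0292). These levels rested on 3 reads summed over the cortical and 97 over the hippocampal libraries. Scaled by TMM-adjusted library sizes, the ratio was 21.2. Its exact conditional binomial 95% interval of 7.04 to 104.6 covers counting error only. Htr1d rested on 62 cortical and 4 hippocampal reads, a ratio of 23.6 in favour of the cortical samples (8.78 to 89.5 by the same method). Htr1a, an abundant hippocampal serotonin receptor, was at 2.01 and 3.30 against 5.44 and 7.12 CPM and missed the threshold (1.25 ± 0.31, adjusted p = 0.0607).

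Neuropeptide precursors had a median of -0.92, with 3 of 22 called, all higher in cortical samples. Over all genes tested 3.48% were called higher in cortical and 2.71% higher in hippocampal samples. Pdyn, the dynorphin precursor, was at 2.96 and 3.09 against 0.586 and 0.631 CPM (-2.31 ± 0.43, edgeR adjusted p = 0.0354), and Cartpt (-2.30 ± 0.45) and the stress peptide Crh (-2.51 ± 0.50) were also called. The interneuron peptides Npy (-1.76 ± 0.45), Sst (-0.91 ± 0.40) and Vip (-1.08 ± 0.34) were not. Calcium-binding and second messenger genes gave 13 calls of 46 in the cortical and 1 in the hippocampal direction, with a median of -0.57. Pde1b, a calmodulin-dependent phosphodiesterase, was at 113 and 103 against 27.9 and 27.9 CPM (-1.96 ± 0.31), and Rgs6, a regulator of G protein signalling, at 15.2 and 16.3 against 4.12 and 4.30 CPM (-1.91 ± 0.15, edgeR adjusted p = 0.0103). Neither gene overlapped between regions. Rgs7 (-1.23 ± 0.13), the adenylyl cyclase Adcy5 (-1.02 ± 0.15) and Pcp4 (-1.70 ± 0.30) were called, and Calb1, calbindin, was not (-1.58 ± 0.45). The hippocampal exception was Pde11a, a phosphodiesterase, at 1.10 and 1.37 against 2.89 and 2.59 CPM (1.15 ± 0.25, edgeR adjusted p = 0.0454).

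Guidance and adhesion genes were called in both directions. Over all genes tested 2.71% were called higher in hippocampal and 3.48% higher in cortical samples. Of 64 axon guidance genes 3 were higher in hippocampal samples: Plxnb2, a semaphorin receptor, at 67.5 and 63.1 against 210 and 191 CPM (1.62 ± 0.28, edgeR adjusted p = 0.0327), the Robo ligand Slit1 at 11.6 and 14.1 against 34.4 and 34.8 CPM (1.43 ± 0.25), and the ephrin receptor Epha6 (1.01 ± 0.20). In the cortical direction 5 were called, Sema3a, Plxnd1 (-1.45 ± 0.20), Unc5d (-1.26 ± 0.20), Epha10 (-0.66 ± 0.14) and Ephb1 (-0.62 ± 0.13). Of 36 synaptic adhesion organizers C1ql2 was higher in hippocampal samples. Cbln2, a cerebellin (-2.17 ± 0.43), Cntnap5a (-1.74 ± 0.31), Flrt1, which overlaps Macrod1 on the other strand (-1.17 ± 0.18), and Cntnap1 (-0.60 ± 0.13) were higher in cortical samples. Of 27 cadherins Pcdh20 (1.42 ± 0.25) and Cdh22 (-1.67 ± 0.25) were called, 1 in each direction.

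Signalling lists gave 2 to 4 calls each, beside 6.19% called among all genes tested. Of 7 corticosteroid signalling genes 2 were higher in hippocampal samples: Nr3c2, the mineralocorticoid receptor, at 22.0 and 18.6 against 34.3 and 36.4 CPM (0.80 ± 0.17, edgeR adjusted p = 0.0418), and Sgk1, its target kinase, at 32.9 and 28.8 against 111 and 104 CPM (1.80 ± 0.38). Nr3c1, the glucocorticoid receptor, overlapped between regions (-0.08 ± 0.11), and Hsd11b1, which regenerates corticosterone, was not called (0.85 ± 0.32). Of 40 Wnt pathway genes 4 were higher in cortical samples, Rspo1, Dkkl1, Wnt10a (-2.18 ± 0.48) and Wnt9a (-1.43 ± 0.25). Of 38 growth factor genes Fgfr1 (0.55 ± 0.12) and Fgf12 (-1.15 ± 0.17) were called in opposite directions. Immediate early genes gave 4 calls of 18. Their median log2 fold change was 0.94, with 13 above 0 and 5 below. Hippocampal libraries lay above cortical ones without overlap in 11 and below in 4, beside 23.2% and 22.6% of all genes tested. Nr4a3 (1.27 ± 0.16) and Egr1, at 180 and 148 against 342 and 485 CPM (1.34 ± 0.22), were higher in hippocampal samples. Egr3 (-1.28 ± 0.24) and Homer1 (-1.10 ± 0.23) were higher in cortical samples, and Fos was not called (1.10 ± 0.54).

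In the remaining lists, 1 of 22 amyloid and tau genes was called, Ncstn, the nicastrin subunit of gamma-secretase, at 20.3 and 20.5 against 42.0 and 35.1 CPM (0.92 ± 0.17, edgeR adjusted p = 0.0343). Ncstn overlaps Copa on the other strand. App (0.34 ± 0.15) and Mapt (-0.41 ± 0.21) were not called. Over all genes tested 6.19% were called. Adult neurogenesis genes gave 0 calls of 11 (Dcx, -0.51 ± 0.34), perineuronal net and matrix genes 0 of 15 (Acan, 0.87 ± 0.27) and the mitochondrial genome 0 of 13, with all 13 log2 fold changes below 0 and a median of -0.82.

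**Figure D4:**
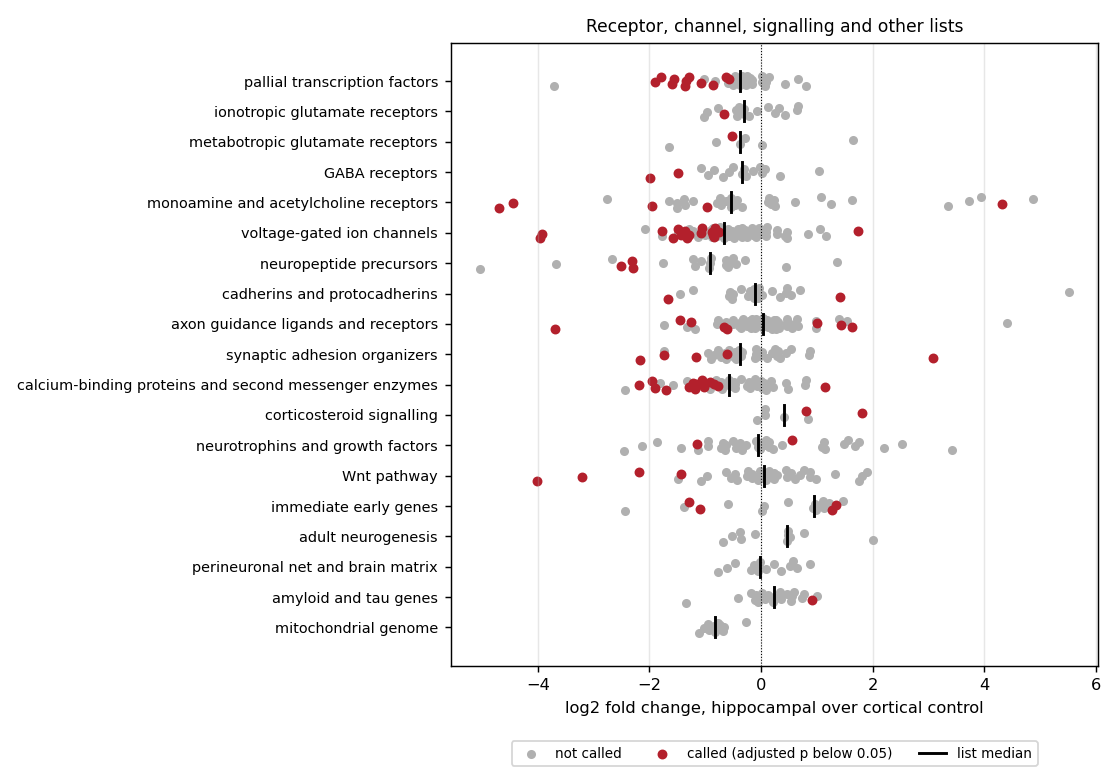
Log2 fold change (hippocampal over cortical control, x axis) of every tested member of the transcription factor, receptor, channel, signalling and other lists, with called genes in red, others in grey and list medians as black bars. Called channel genes lie to the left in 17 of 18 cases, while called guidance genes lie on both sides (3 and 5).

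The same region difference was measured in the tamoxifen samples, which share no library with the controls. All samples share the estimate of the spread, so a control call also depended on how close the tamoxifen samples of a group lay. The shares of control calls below are therefore not independent of how the genes were chosen. Of the 1118 control calls 1098 (98.2%) had the same sign there, against 73.5% of all genes tested. The tamoxifen contrast called 202 genes (1.12% of 18074), of which 161 were control calls in the same direction and 0 in the opposite direction. The 161 are 14.4% of the control calls and 79.7% of the tamoxifen calls. Fibcd1, at 4.68 and 4.07 CPM in cortical against 41.4 and 35.5 CPM in hippocampal tamoxifen samples, had a log2 fold change of 3.14 ± 0.24 (edgeR adjusted p = 0.0189). Drd2, at 4.10 and 12.9 against 0.444 and 0.557 CPM, had one of -4.09 ± 0.55 (adjusted p = 0.0368). Both genes stayed separate between the regions. The tamoxifen libraries separated the regions in the same direction for 351 of the 489 hippocampal and 580 of the 629 cortical calls. Of all 18074 genes tested, 3336 were separated in the same direction in both treatments. In tamoxifen libraries alone 27.6% were separated in either direction. The median tamoxifen log2 fold change was 0.60 over the hippocampal calls and -0.75 over the cortical calls. It was smaller than in controls for 436 of 489 and 542 of 629 genes; the called genes were selected in the controls.

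Rorb and Grm3 were among the control calls whose sign turned. Thsd7b, given above, and Gli3 and Proca1, given below, turned as well. Rorb was at 49.3 and 44.9 CPM in cortical against 26.2 and 25.4 CPM in hippocampal controls, and at 37.4 and 33.4 against 40.2 and 32.3 CPM in tamoxifen samples, a log2 fold change of 0.03 ± 0.14. For Grm3 the tamoxifen value was 0.12 ± 0.11. The difference between treatments was called for 0 of 18074 genes by edgeR's quasi-likelihood test (981 at an unadjusted p below 0.05) and for 9 by DESeq2.

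**Figure D5:**
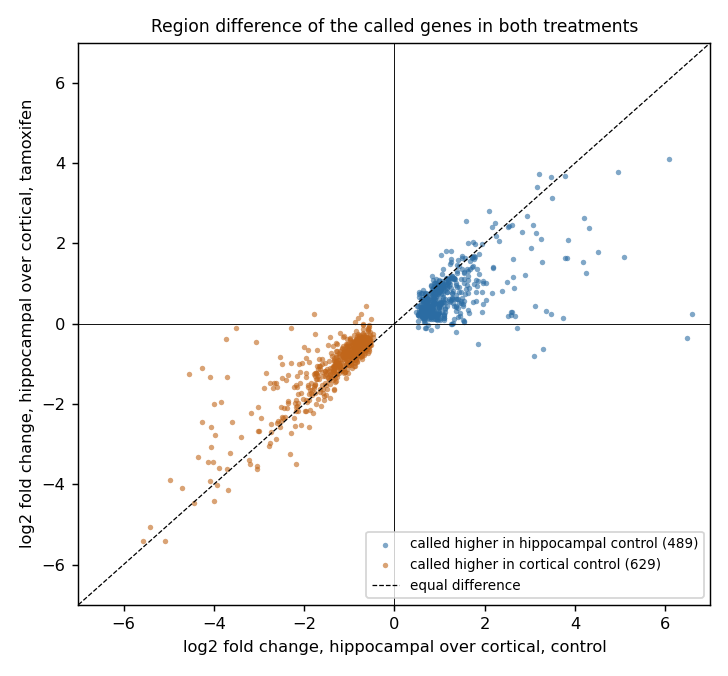
Log2 fold change between regions in tamoxifen samples (y axis) against controls (x axis) for the 489 genes called higher in hippocampal (blue) and the 629 called higher in cortical controls (orange), with the line of equal difference dashed. Of these points 1098 of 1118 lie in the 2 quadrants of matching sign, and most lie nearer to 0 on the y axis than on the x axis.

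The called genes had higher median levels and exon lengths than all genes tested. Of the hippocampal calls 97.95% and of the cortical calls 91.95% were protein-coding, against 85.71% of all genes tested, among identifiers found in GENCODE M21. The median level over the 4 control samples was 12.4 CPM for hippocampal calls, 33.8 CPM for cortical calls and 7.73 CPM for all genes tested. The median summed exon length was 3481, 4151 and 3274 bases. These medians were not tested.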

How the data were processed

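The deposited tables gave, per library, whole-number read counts per gene and RPKM values (reads scaled by exon length and library size) made by the authors, with gene identifiers, symbols, coordinates and exon lengths per the file headers. The submitters' processing notes name STAR, HTSeq and the build mm10; the sources used here state no version, annotation or strand setting. The authors' RPKM values were only checked against the deposited counts and entered no test. Summary entries of the counter, which name no gene (multimapped reads 28.72 to 35.43% in control libraries), were left out.

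Neighbouring libraries were summed, giving 8 samples in 4 groups. Genes were filtered with filterByExpr, scaled by TMM and tested with edgeR 4.0.16 (robust quasi-likelihood, 1 mean per group, all 8 samples sharing the spread; R 4.3.3), with Benjamini-Hochberg adjustment over 18074 genes and a threshold of 0.05. Each SE is the absolute log2 fold change over the square root of its F statistic. With 2 samples against 2, an exact permutation test cannot go below p = 0.333 and was not used. On simulated counts with 17858 genes the fit recovered 23% of 100 genes changed 2-fold and 99% of 100 changed 8-fold, with 3 false calls. These counts were drawn at the trended dispersion around 1 common mean per gene, with no other gene changed. They held no differences in tissue content between samples, so these shares do not measure the error rate in the real data.

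Alternatives were other scalings and filters, DESeq2 1.42.0, limma 3.58.1 (voom), separate libraries, controls only, a replicate block and leaving out each control library and each summed sample. The members and the 41 gene lists (833 entries, of which 756 distinct symbols were tested) were chosen with earlier results of these data known, as were the motifs. Named genes are Tert, per direction the 15 called genes of largest log2 fold change averaging 1 CPM or more over controls and without library overlap (no predicted, Rik, mitochondrial, pseudogene or sex-linked entries), and from every list up to its first 3 members and its called members (all if 8 or fewer in a direction, otherwise the 6 of smallest p). Some genes that this rule names are not reported here, and other genes were chosen after their values were seen. No set test was run. Of the 179 genes named here 29 overlap a tested gene on the other strand by their whole spans, introns included. Whether their exons overlap or their counts share reads was not checked.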

Additional observations from a re-analysis of the deposited data

Results flagged for a closer look

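For 3 genes named here the libraries of the regions did not overlap in controls and, in the opposite direction, did not overlap in tamoxifen samples. How many of all genes tested show this pattern was not counted, so the number 3 has no background share. Separation in either direction was common, at 45.9% of genes tested in controls and 27.6% in tamoxifen samples. For none of these 3 genes did edgeR's test of the difference between treatments pass (adjusted p = 0.889 for each). Gli3, a transcription factor of hedgehog signalling, was at 22.2 and 20.6 CPM in cortical against 14.2 and 13.4 CPM in hippocampal controls (log2 fold change -0.63), but at 14.3 and 15.4 against 20.97 and 19.1 CPM in tamoxifen samples (0.43). Proca1 was at 7.57 and 7.59 against 4.83 and 4.25 CPM in controls (-0.74) and at 7.32 and 6.12 against 8.39 and 7.52 CPM in tamoxifen samples (0.24). Gabra2, the alpha 2 subunit of GABA-A receptors, was at 35.4 and 34.6 against 24.1 and 32.3 CPM in controls (-0.31, not called) and at 28.1 and 26.5 against 35.8 and 34.7 CPM in tamoxifen samples (0.37). Gli3 and Proca1 were chosen after their values were seen. Groups of 2 summed samples are too small for a check on single outlying samples.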

How the results depend on the processing

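Every called gene that stayed in the test kept its sign under all 30 alternatives, and so did all 128 called genes named here. The alternatives reuse the same control samples, so the sign of a gene without library overlap could hardly change. None of the 128 was called under every alternative. The number of calls, 1118 in the reported fit, depended on how the spread was estimated. It was 3193 with DESeq2 (1670 higher in hippocampal and 1523 in cortical samples), 4743 with limma voom and quality weights (2441 and 2302), 4825 with the control samples only (2477 and 2348), 6982 with the 16 libraries kept separate (3725 and 3257), 3380 with these in limma with a duplicate correlation (1591 and 1789) and 8378 with the control libraries only (4306 and 4072). Fits on separate libraries count near repeats as replicates. Other scalings, filters and gene exclusions gave 1125 to 1336 calls. Hippocampal genes were 43.7% of the calls in the reported fit, 34.4% with upper quartile scaling and 52.3% with DESeq2.

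The replicate block, which treats the sample letters as shared between groups, gave 72 calls on summed samples (17 and 55), 71 of them among the 1118, and 6499 on the 16 libraries (3445 and 3054). The deviations of samples A and B correlated at 0.257 between the control regions and from -0.405 to 0.283 over all pairs of groups, and no label ties a letter to a shared animal or day, so the letters were not taken as pairs. Leaving out single libraries or summed samples gave 0 to 3915 calls (0 to 1772 in hippocampal and 0 to 2143 in cortical direction), the lone sample then being assumed to vary like the other groups. Single control libraries left 1005 to 1108 calls, a single control sample 0 to 2 (1 and 1 without cortical sample A), hippocampal tamoxifen sample A 404 (148 and 256) and B 433 (199 and 234), and cortical tamoxifen sample A 3915 and B 3873 (1757 and 2116).

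The share of control calls with the same sign in tamoxifen samples was 93.4% with DESeq2, 90.8% with voom, 88.5% and 92.0% in the 16-library fits, 100% and 89.2% with the block, 87.6% and 91.3% without cortical tamoxifen sample A or B, 99.5% and 84.1% without hippocampal tamoxifen sample A or B, and 100% without cortical control sample A. The difference between treatments gave 9 calls with DESeq2, 867, 112 and 544 in the fits of 16 libraries (edgeR, duplicate correlation and block) and 0 with any sample left out. Tert passed at 1.39 and 1.40 in the fits of separate libraries (edgeR adjusted p = 0.0353 and 0.047) and at 1.35 in the 16-library block (0.000343), with 0.47 to 2.16 when samples were left out. Uncalled genes that changed sign were Bok (0.24 and 0.23 without cortical sample A or hippocampal sample B), Prox1 (-0.06 without cortical sample B), Fezf2 (-0.12) and Mbp (0.084) without hippocampal sample A, and Slc17a6 (0.14 without cortical library 2, and from -0.33 upwards without other libraries). The cause of these moves was not tested.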

Other observations

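Genes with the smallest p that no list or size rule had named were looked at after their values were seen. In the cortical direction they included Rims3 and Rims4, relatives of the presynaptic RIM scaffold proteins. Rims3 was at 280 and 260 CPM in cortical against 66.7 and 54.3 CPM in hippocampal controls (log2 fold change -2.16 ± 0.18, edgeR adjusted p = 0.0122), and Rims4 at 178 and 186 against 80.3 and 75.3 CPM (-1.23 ± 0.13). Mlip, a lamin-interacting protein (-1.79 ± 0.13), Cit, citron kinase (-1.61 ± 0.14), Arpp21, a cyclic AMP-regulated phosphoprotein (-2.17 ± 0.21), the myosin Myo5a (-1.27 ± 0.13) and the BMP antagonist Chrdl1 (-2.10 ± 0.18) were called in that direction as well, and every one of them had the same sign in tamoxifen samples.

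In the hippocampal direction, Lgmn, the protease legumain, was at 95.2 and 102 CPM in cortical against 191 and 251 CPM in hippocampal controls (1.16 ± 0.15, edgeR adjusted p = 0.0226). The summed microglial markers moved in the same direction in these samples, and their part in this value was not tested. Nfatc2 (1.10 ± 0.13) and Tmem86a (1.55 ± 0.18) were also called, and their tamoxifen log2 fold changes were 0.54 and 0.57.

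Ankk1, on the minus strand at chr9:49415222-49427021, lies next to Drd2 without overlapping it. It was at 0.570 and 0.606 CPM in cortical against 0.00837 and 0.0171 CPM in hippocampal controls (log2 fold change -5.40 ± 0.55, edgeR adjusted p = 0.0177), beside -4.70 for Drd2. These controls held 91 cortical and 3 hippocampal reads of Ankk1. Scaled by TMM-adjusted library sizes, the ratio was 46.3 (exact conditional binomial 95% interval 15.3 to 228.5, counting error only). In tamoxifen samples the value was -5.06 for Ankk1.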
